A study of Ictalurus punctatus x Ictalurus furcatus and Ictalurus furcatus and Ictalurus punctatus with 8 samples.

Results

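Liver gene expression of the B×C hybrid catfish (F1BC) was compared with that of the blue catfish (PB). F1BC is the cross of a blue catfish (Ictalurus furcatus) female with a channel catfish (Ictalurus punctatus) male, and PB is the parental blue catfish, so both types had blue catfish mothers and differed in the species of the father. The comparison rests on the 2 F1BC livers and the 2 PB livers among the 8 livers of the series. The remaining libraries are from the reciprocal C×B hybrid (F1CB, channel catfish female with blue catfish male) and the channel catfish (PC), with 2 livers each. The study asked which genes differ between parental species and their hybrids when the fish are reared in tanks. All fish were 12 months old and untreated, the labels give no sex, and each type was kept in a tank of its own, so that genetic type and tank cannot be told apart. All reads were mapped to the channel catfish genome. PB livers carry blue catfish alleles at every gene and F1BC livers carry a blue and a channel catfish set, so that low expression of a blue catfish allele and poor mapping of its reads cannot be told apart.

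The liver turns dietary fuel into fat, glycogen and plasma proteins and releases fuel again during a fast. Insulin shifts it towards the synthesis of fatty acids from glucose, while fasting and glucocorticoids raise proteins that restrain growth signals and spare glucose, such as the binding protein of insulin-like growth factors and the kinases that switch off pyruvate dehydrogenase. Bile acids, made from cholesterol in hepatocytes, and pancreatic lipases act together in the gut to digest fat. In many bony fish exocrine pancreas tissue lies in or along the liver, so that liver samples can contain its digestive enzymes.

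The values were treated as CPM, the reads of each gene scaled to a fixed total per library. Some values near 0 are too small to come from whole reads, so that levels near 0 are not read counts. All values were rescaled by the median of ratios, so that the median ratio of genes to their average over the libraries is the same in all livers. They are not divided by gene length and are compared only between livers, gene by gene. The rescaling factors were 0.905 and 0.793 for F1BC livers and 0.998 and 1.20 for PB livers. The 20 genes with the highest values took 28.3% to 39.0% of the CPM of a library, and the hemopexin-like plasma protein gene wap65-1 came first in all 8 livers. Hepatocyte markers were abundant, with summed levels of 263644 and 331213 CPM in F1BC livers and 215526 and 158677 CPM in PB livers, and none of the 23 tested lay under 1 CPM throughout these 4 livers. Spearman correlations across genes were 0.941 between the F1BC livers, 0.906 between the PB livers and 0.822 to 0.881 between livers of the 2 types. No sequencing depth is given with the values, and precision is judged by how far replicate livers lay apart.

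A total of 365 of the 13408 genes tested (2.72%) were differentially expressed genes (DEGs), which required an adjusted p under 0.05 by limma together with a log2 fold change beyond 1.5 in size. Of these, 286 were higher in F1BC (2.13% of genes tested) and 79 were lower in F1BC (0.589%). All fold changes are F1BC minus PB on the scale of log2(CPM + 0.5), on which the changes of genes near 0 appear smaller than they are. The median log2 fold change was 2.69 among the higher DEGs, whose values ran from 1.61 to 7.78. Among the lower DEGs the median was -2.71, with values from -5.17 to -1.61. Both livers of F1BC lay on the same side of both PB livers for all 365 DEGs, which was also the case for 52.6% of all genes tested. Without rescaling, the median of all genes moved from -0.01 to -0.35 and the split became 180 higher and 126 lower DEGs, so changes are given relative to the rescaled libraries.

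**Figure D1:**
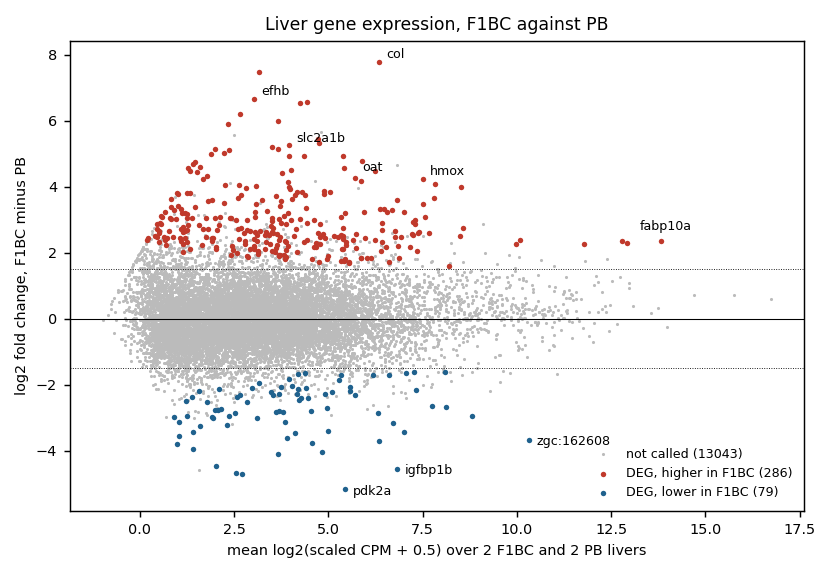
Log2 fold change between F1BC and PB livers (vertical axis) against the mean log2(scaled CPM + 0.5) of the 4 livers (horizontal axis), with 1 point per gene and dotted lines at the fold change threshold of 1.5. The 286 DEGs higher in F1BC (red) outnumber the 79 lower in F1BC (blue), and colipase (col) and the kinase gene pdk2a mark the ends of the range.

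Many DEGs were close to 0 in the type where they were low. The PB mean lay under 1 CPM for 77 of the 286 higher DEGs (26.9%), against 7.82% of all genes tested. Likewise, the F1BC mean lay under 1 CPM for 17 of the 79 lower DEGs (21.5%), against 7.57% of all genes. With only genes over 1 CPM on average in both types, 213 DEGs were called, 172 higher and 41 lower in F1BC.

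The number of DEGs depended on single livers. It was 107 without F1BC replicate 1, 90 without F1BC replicate 2, 84 without PB replicate 2 and 346 without PB replicate 1. Leaving out a channel catfish liver, which is not itself compared but enters the shared estimate of the spread and the choice of genes tested, gave 581 DEGs without PC replicate 1 and 590 without PC replicate 2, and the number was 303 and 300 without the F1CB livers. A total of 60 DEGs, 54 higher and 6 lower in F1BC, were called in all 8 of these fits and are described below as stable. Where a fit leaves a type with 1 liver, that liver is assumed to vary as the other types do. Where a call is said to be lost without either liver of a type, leaving out each of them singly ended it. For other DEGs described with their test, the highest adjusted p over the 8 fits is given as the value it could reach.

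The gene with the largest difference was col, which encodes colipase, the small protein that anchors pancreatic lipase to fat droplets coated with bile acids. It had 1034 and 1410.0 CPM in F1BC livers, against 5.24 and 4.77 CPM in PB livers (log2 fold change 7.78 ± 0.44 (SE), adjusted p = 4.77e-06). With 928 and 696 CPM in F1CB livers and 1789 and 786 CPM in PC livers, the PB livers stood apart from all other types. A gene without a symbol or description, ENSIPUG00000004359, had 92.1 and 153 CPM in F1BC livers, against 0.156 and 0.176 CPM in PB livers (log2 fold change 7.48 ± 0.42 (SE), adjusted p = 4.77e-06). Its F1CB livers, at 1.48 and 1.21 CPM, were also low. The gene efhb, an EF-hand protein gene, had 103 and 63.97 CPM in F1BC livers, against 0.3103 and 0.294 CPM in PB livers (log2 fold change 6.67 ± 0.55 (SE), adjusted p = 1.20e-04). These 3 genes were stable.

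A vitellogenin-like gene, ENSIPUG00000013294, had 153 and 282 CPM in F1BC livers, against 4.33 and 0.509 CPM in PB livers (log2 fold change 6.56 ± 1.06 (SE), adjusted p = 0.00662). Its PC livers, at 609 and 93.3 CPM, and its F1CB livers, at 351 and 36.3 CPM, lay far apart within each type. Vitellogenin is the yolk precursor that the liver makes under oestrogen, and the sex of these fish is not given. The adjusted p of this gene reached 0.0955 and the call was lost without F1BC replicate 2 or PB replicate 2. The oestrogen receptor gene esr1, which vitellogenin genes respond to in maturing females, had 0.796 and 0.581 CPM in F1BC livers and 1.395 and 1.62 CPM in PB livers and was not a DEG. The egg envelope genes zp3f.2 and zp2l1 were at most 1.47 CPM in these livers and were not DEGs. A further gene with an egg envelope symbol, zpax1, was a DEG lower in F1BC and is described below.

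Among the other genes with the largest increases, the tyrosine kinase gene si:ch73-340m8.2 had 186 and 176 CPM in F1BC livers, against 2.44 and 0.801 CPM in PB livers, and sphkap, which encodes an anchoring protein of protein kinase A, had 70.9 and 40.1 CPM in F1BC livers, against 0.431 and 0.0644 CPM in PB livers. A CD276 antigen homolog, ENSIPUG00000009749, from a family of immune checkpoint ligands, had 76.9 and 128 CPM in F1BC livers, against 1.52 and 0.7402 CPM in PB livers. The cell adhesion gene pcdhb had 33.4 and 43.6 CPM in F1BC livers, against 0.186 and 0.119 CPM in PB livers. Both PB livers of each of these genes were close to 0 beside both F1BC livers, and all 4 were stable, with log2 fold changes of 5.89 to 6.54 and adjusted p-values (limma) of 9.13e-05 to 9.49e-04. The tripartite motif gene trim108 had 196 and 144 CPM in F1BC livers, against 9.23 and 1.33 CPM in PB livers (log2 fold change 5.32 ± 0.62 (SE), adjusted p = 9.49e-04) and was also stable.

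The gene ret2, a cytosolic retinol-binding protein, stood out because the channel catfish livers were low as well. It had 177 and 167 CPM in F1BC livers, against 13.96 and 0.598 CPM in PB livers, with 2.801 and 1.54 CPM in F1CB livers and 0.659 and 0.743 CPM in PC livers. The log2 fold change was 5.44 ± 0.88 (SE, adjusted p = 0.00662 by limma), but PB replicate 1 was far above PB replicate 2, and without either F1BC liver the adjusted p reached 0.0574. For wnt8b, a secreted Wnt ligand, the values were 85.9 and 54.7 CPM in F1BC livers, against 1.49 and 1.24 CPM in PB livers (log2 fold change 5.22 ± 0.82 (SE), adjusted p = 0.00585, reaching 0.07198 without F1BC replicate 1 or PB replicate 2).

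**Figure D2:**
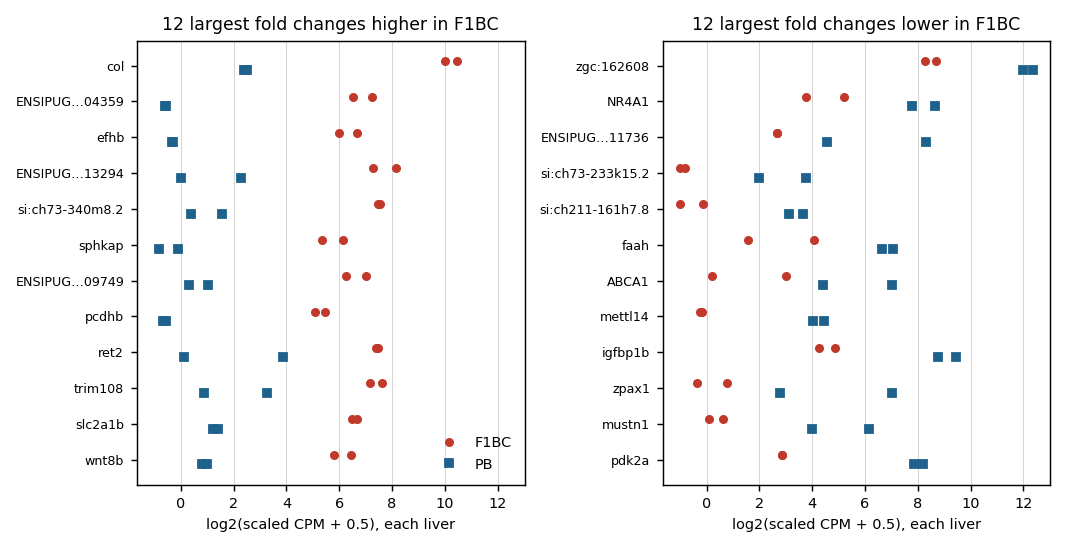
Log2(scaled CPM + 0.5) of each liver for the 12 DEGs with the largest fold change in each direction, F1BC as circles and PB as squares (ENSIPUG… stands for the full gene identifier, last 5 digits shown). The livers of the types do not overlap for any of these genes, and PB replicates lie far apart for ret2, zpax1 and ENSIPUG00000011736.

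The largest decrease was in pdk2a, a pyruvate dehydrogenase kinase that blocks the entry of pyruvate into the citric acid cycle and so spares glucose. It had 6.72 and 6.81 CPM in F1BC livers, against 291 and 234 CPM in PB livers (log2 fold change -5.17 ± 0.41 (SE), adjusted p = 9.13e-05). The PC livers, at 5.12 and 7.78 CPM, were as low as the F1BC livers, and the F1CB livers were between at 36.4 and 56.8 CPM. The binding protein gene igfbp1b, which is known to rise with fasting and stress in fish and holds back insulin-like growth factors, had 28.5 and 18.5 CPM in F1BC livers, against 439 and 693 CPM in PB livers (log2 fold change -4.56 ± 0.46 (SE), adjusted p = 4.26e-04). Both genes were stable, and their livers were well apart.

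The gene zgc:162608, an uncharacterized protein gene, had the highest CPM among the lower DEGs, with 313 and 412 CPM in F1BC livers, against 5249 and 4046 CPM in PB livers (log2 fold change -3.68 ± 0.49 (SE), adjusted p = 0.00224), and was stable. A rhodanese-like gene, si:ch211-161h7.8, had 0.408 and 0 CPM in F1BC livers, against 8.24 and 12.1 CPM in PB livers, and mustn1, a small nuclear protein of muscle and skeleton, had 1.03 and 0.579 CPM in F1BC livers, against 15.6 and 70.1 CPM in PB livers. Both were stable too, and the F1BC livers were near 0 for each, at log2 fold changes of -3.96 and -4.71 (adjusted p = 0.00224 and 0.00307 by limma).

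The other large decreases did not hold in all fits. For mettl14, the partner of the enzyme that methylates adenosines in RNA, the values were 0.398 and 0.335 CPM in F1BC livers, against 21.6 and 15.8 CPM in PB livers (log2 fold change -4.45 ± 0.75, SE, adjusted p = 0.00867). A gonadotropin releasing hormone 1 gene, ENSIPUG00000011736, had 5.81 and 5.93 CPM in F1BC livers, against 23.4 and 316 CPM in PB livers. The gene zpax1 had 1.22 and 0.2800 CPM in F1BC livers, against 6.38 and 129 CPM in PB livers. It is described as uncharacterized, but its symbol is that of an egg envelope gene. For ENSIPUG00000011736 and zpax1, PB replicate 2 was far above PB replicate 1. The immediate early nuclear receptor gene NR4A1 had 13.2 and 36.3 CPM in F1BC livers, against 219 and 399 CPM in PB livers, and faah, which breaks down fatty acid amides, had 16.1 and 2.44 CPM in F1BC livers, against 133 and 101 CPM in PB livers. The gene si:ch73-233k15.2 had 0 and 0.0726 CPM in F1BC livers, against 3.47 and 13.3 CPM in PB livers. The adjusted p-values of these genes, 0.00867 to 0.0414, reached 0.07198 to 0.2602. All 6 calls were lost without PB replicate 2, and zpax1, mettl14, si:ch73-233k15.2, NR4A1 and ENSIPUG00000011736 were also lost without either F1BC liver. Leaving out PB replicate 1 ended the calls of mettl14, faah and NR4A1, leaving out F1BC replicate 2 that of faah, and leaving out either F1CB liver those of NR4A1 and ENSIPUG00000011736.

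Among 10 tested genes for lipases and colipase, 4 were higher in F1BC (col, PNLIPRP2, lpl and lipia) and none was lower. Over all genes tested, 2.13% were higher and 0.589% lower DEGs. In this list 5 had both F1BC livers above both PB livers and 3 had both below (25.7% and 26.9% of all genes tested). PNLIPRP2, a pancreatic triacylglycerol lipase-like gene, had 1031 and 846 CPM in F1BC livers, against 83.6 and 36.01 CPM in PB livers (log2 fold change 4.08 ± 0.58 (SE), adjusted p = 0.00307), and without PB replicate 2 its adjusted p was 0.0534. The other gene described as a pancreatic triacylglycerol lipase, lipp, was not in that list and was found from its description after the values were seen. It had 212 and 253 CPM in F1BC livers, against 11.6 and 4.22 CPM in PB livers (log2 fold change 4.94 ± 0.58 (SE), adjusted p = 0.00102) and was stable. The lipase H-like gene lipia had 27.6 and 27.2 CPM in F1BC livers, against 4.27 and 3.83 CPM in PB livers (log2 fold change 2.62 ± 0.40 (SE), adjusted p = 0.00513) and lost its call without either F1BC liver or PB replicate 2 (up to 0.0611).

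No other gene of the exocrine pancreas list was a DEG. Of 17 tested markers, PNLIPRP2 and col were higher in F1BC and none was lower, against 2.13% and 0.589% of all genes tested. The median log2 fold change of the list was -1.46, against -0.01 over all genes. Of the other 15 markers, 8 had both F1BC livers below both PB livers (26.9% of all genes tested) and none had both above (25.7%). Trypsin (prss1) had 576 and 115 CPM in F1BC livers and 635 and 975 CPM in PB livers, and elastase (ela2) had 186 and 55.3 CPM in F1BC livers and 329 and 559 CPM in PB livers, neither of them a DEG (adjusted p = 0.461 and 0.385 by limma). The second colipase gene, CLPS, had 9.11 and 3.19 CPM in F1BC livers and 15.95 and 25.9 CPM in PB livers (adjusted p = 0.273). F1BC replicate 1 had several times the level of F1BC replicate 2 for these enzymes, whereas col, PNLIPRP2 and lipp differed little between the F1BC livers. Reads shared between similar lipase or colipase genes would make single values uncertain, and how pancreas tissue in the samples bears on these values was not tested. In whole liver, fewer cells of a type and less RNA per cell cannot be told apart.

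**Figure D3:**
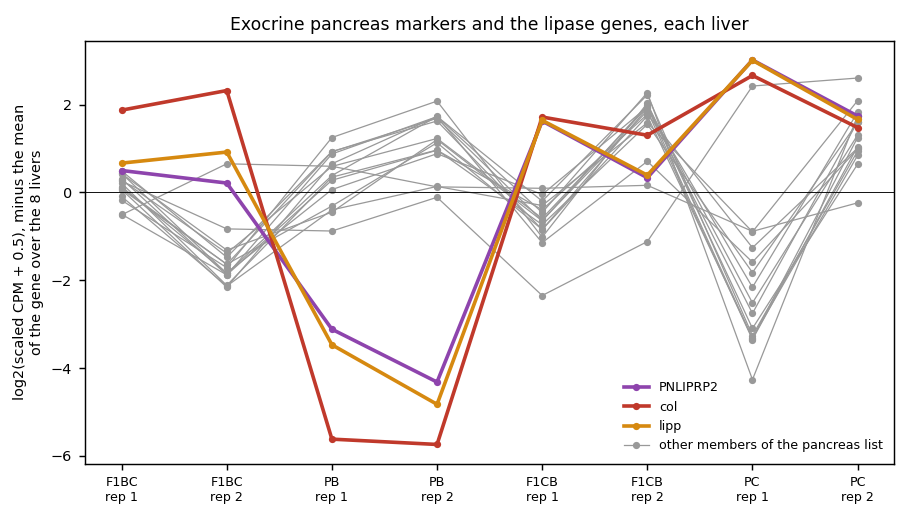
Log2(scaled CPM + 0.5) of the exocrine pancreas markers in each of the 8 livers, with the mean of each gene over the livers subtracted, together with the lipase gene lipp. Colipase (col), PNLIPRP2 and lipp drop only in the PB livers, while most of the other markers (grey) are not low there and drop in F1BC replicate 2 and PC replicate 1.

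Several genes that make and carry fatty acids were higher in F1BC livers. The liver fatty acid-binding protein gene fabp10a, which shuttles fatty acids within hepatocytes, had 35848 and 30609.5 CPM in F1BC livers, against 8978 and 4605 CPM in PB livers (log2 fold change 2.36 ± 0.54 (SE), adjusted p = 0.0412). The lipogenic regulator thrsp, annotated as MID1-interacting protein 1A-like, had 17484 and 14494 CPM in F1BC livers, against 4451 and 2203 CPM in PB livers (log2 fold change 2.35 ± 0.52 (SE), adjusted p = 0.0357), and the stearoyl-CoA desaturase gene scdb, which makes monounsaturated fatty acids, had 1341 and 1578 CPM in F1BC livers, against 136 and 60.6 CPM in PB livers (log2 fold change 3.99 ± 0.90 (SE), adjusted p = 0.0377). These 3 calls were lost without either F1BC liver or without PB replicate 2 (adjusted p up to 0.282, 0.2599 and 0.281), and that of scdb also without PB replicate 1. The NADH dehydrogenase subunit gene nduc2 had 19008 and 15660.4 CPM in F1BC livers, against 5059 and 2393 CPM in PB livers (log2 fold change 2.31 ± 0.53 (SE), adjusted p = 0.0404, up to 0.283 and lost without either F1BC liver or PB replicate 2). It kept a ratio of 1.08 to 1.14 to thrsp in all 8 livers, so that reads shared between these genes cannot be left aside and they are counted here as uncertain.

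Of 29 tested genes of fatty acid synthesis, thrsp and scdb were the only DEGs, 14 had both F1BC livers above both PB livers and 3 had both below (25.7% and 26.9% of all genes tested). The list median was 0.76. Fatty acid synthase (fasn) had 495 and 650.4 CPM in F1BC livers and 64.1 and 7.23 CPM in PB livers and did not pass (log2 fold change 4.67 ± 1.26, SE, adjusted p = 0.0769 by limma), with PB livers far apart. The fatty acid elongase gene elovl6 had 1157 and 674 CPM in F1BC livers and 294 and 348 CPM in PB livers (adjusted p = 0.0979). None of the 26 genes of triglyceride storage or the 33 genes of fatty acid oxidation and ketone bodies was a DEG. Over all genes tested, 2.72% were DEGs.

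The fatty acid and retinoid binding proteins held 3 higher DEGs and 1 lower DEG among 14, against 2.13% and 0.589% of all genes tested. FABP2, the intestinal type, had 109 and 142 CPM in F1BC livers, against 16.4 and 3.896 CPM in PB livers (log2 fold change 3.85 ± 0.92 (SE), adjusted p = 0.0472, up to 0.331). The PC livers were under 1 CPM for this gene, as for ret2. The gene fabp11a, annotated as heart-like, was lower in F1BC, with 84.9 and 90.9 CPM in F1BC livers, against 269 and 270.4 CPM in PB livers (log2 fold change -1.61 ± 0.37 (SE), adjusted p = 0.0418, up to 0.254). Both calls were lost without either F1BC liver or PB replicate 2, and that of fabp11a also without PB replicate 1 or either F1CB liver.

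Lipoprotein genes moved in both directions, with 4 higher and 2 lower DEGs among 24, against 2.13% and 0.589% of all genes tested. Lipoprotein lipase (lpl), which frees fatty acids from circulating lipoproteins, had 899.8 and 700.0 CPM in F1BC livers, against 133 and 29.3 CPM in PB livers (log2 fold change 3.65 ± 0.64 (SE), adjusted p = 0.0103, up to 0.0906). The gene abca1a, a cholesterol and phospholipid exporter, had 212 and 372 CPM in F1BC livers, against 22.1 and 33.9 CPM in PB livers (log2 fold change 3.34 ± 0.43 (SE), adjusted p = 0.00173) and was stable. A second gene of the same description, ABCA1, was lower, with 0.667 and 7.58 CPM in F1BC livers, against 20.8 and 128 CPM in PB livers (log2 fold change -4.09 ± 0.95 (SE), adjusted p = 0.0425, up to 0.331), and reads divided between these copies would make both values uncertain. The scavenging receptor gene lrp1bb had 9.97 and 7.26 CPM in F1BC livers, against 0.125 and 0.147 CPM in PB livers, and the apolipoprotein gene apof had 82.5 and 85.4 CPM in F1BC livers, against 30.97 and 11.7 CPM in PB livers, both higher in F1BC at log2 fold changes of 3.83 and 2.11 (adjusted p = 0.0131 and 0.0323, up to 0.118 and 0.232). The adaptor gene of LDL receptor uptake, ldlrap1b, was lower, with 22.3 and 17.6 CPM in F1BC livers, against 53.3 and 99.8 CPM in PB livers (log2 fold change -1.86 ± 0.43 (SE), adjusted p = 0.0426, up to 0.303). Except for abca1a these calls were lost without PB replicate 2 and without F1BC replicate 1, those of lpl, lrp1bb, apof and ldlrap1b without F1BC replicate 2, that of lrp1bb without PB replicate 1, and those of ABCA1, apof and ldlrap1b without either F1CB liver.

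Of 31 tested genes of sterol synthesis and uptake, 2 were lower in F1BC and none was higher, against 0.589% and 2.13% of all genes tested. The list median was -0.42. The genes that passed were insig1, which retains the sterol sensor in the endoplasmic reticulum, with 3.57 and 5.98 CPM in F1BC livers, against 65.3 and 20.1 CPM in PB livers (log2 fold change -2.84 ± 0.65 (SE), adjusted p = 0.0412), and hsd17b7, a 3-ketosteroid reductase of cholesterol synthesis, with 0.624 and 1.84 CPM in F1BC livers, against 25.5 and 8.26 CPM in PB livers (log2 fold change -3.22 ± 0.69 (SE), adjusted p = 0.0298). Each call was lost whichever F1BC or PB liver was left out (up to 0.254 and 0.239).

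Bile acid genes held no DEG among 15, against 2.72% of all genes tested. In this list 11 had both F1BC livers above both PB livers and 1 had both below (25.7% and 26.9% of all genes tested). The list median was 1.16. The bile salt export pump gene abcb11b had 674 and 609 CPM in F1BC livers and 255 and 101 CPM in PB livers (log2 fold change 1.99 ± 0.52, SE, adjusted p = 0.0671 by limma). The gene cyp7a1, for the rate-limiting enzyme of bile acid synthesis, had 85.6 and 556 CPM in F1BC livers and 45.8 and 3.69 CPM in PB livers (adjusted p = 0.0552), and the livers of each type were several-fold apart. The repressor gene nr0b2a had 6.599 and 14.5 CPM in F1BC livers and 1.76 and 0.624 CPM in PB livers (adjusted p = 0.0558).

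Of 39 tested genes of the glucocorticoid and fasting response, 4 were lower and none was higher, against 0.589% and 2.13% of all genes tested. The list median was -0.25. Besides igfbp1b, insulin receptor substrate 2 (irs2a), an adaptor of the insulin receptor that rises in the fasted liver, had 48.00 and 31.2 CPM in F1BC livers, against 509 and 346 CPM in PB livers (log2 fold change -3.42 ± 0.43 (SE), adjusted p = 0.00147) and was stable. TSC22D3, a glucocorticoid-induced leucine zipper gene, had 135 and 88.5 CPM in F1BC livers, against 724 and 676 CPM in PB livers (log2 fold change -2.68 ± 0.37 (SE), adjusted p = 0.00294), and without F1BC replicate 2 its adjusted p was 0.05803. Sestrin 1 (sesn1), an inhibitor of growth signalling through mTOR, had 359 and 71.1 CPM in F1BC livers, against 1025 and 1472 CPM in PB livers (log2 fold change -2.94 ± 0.68 (SE), adjusted p = 0.0432, up to 0.321 and lost without F1BC replicate 2 or either PB liver).

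For these 4 genes the PC livers were low as the F1BC livers were, and both F1CB livers lay above both livers of PC. Igfbp1b had 274 and 499 CPM in F1CB livers and 9.56 and 16.9 CPM in PC livers, irs2a had 149 and 262 CPM in F1CB livers and a mean of 30.4 ± 6.52 CPM in PC livers (SD, n = 2), and TSC22D3 had 562 and 482 CPM in F1CB livers and 110.3 and 118 CPM in PC livers. Sesn1 had 1043 and 2976 CPM in F1CB livers and 208 and 277 CPM in PC livers. Other members did not pass. The paralog igfbp1a had 339.7 and 249 CPM in F1BC livers and 2155 and 835 CPM in PB livers (adjusted p = 0.0886), the glucocorticoid-induced kinase gene SGK1 had 92.3 and 87.02 CPM in F1BC livers and 451 and 292 CPM in PB livers (adjusted p = 0.107), and the glucocorticoid receptor target fkbp5 had 280.3 and 209.7 CPM in F1BC livers and 207 and 305 CPM in PB livers (adjusted p = 0.971). The gluconeogenic glucose-6-phosphatase gene g6pca.1 had 3447 and 1750.4 CPM in F1BC livers and 4801 and 1237 CPM in PB livers (adjusted p = 0.994 by limma), with overlapping livers.

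The glucose transporter gene slc2a1b had 102 and 88.9 CPM in F1BC livers, against 2.17 and 1.86 CPM in PB livers (log2 fold change 5.25 ± 0.70 (SE), adjusted p = 0.00221) and was stable, although the PC livers lay far apart at 37.2 and 239 CPM. The glucokinase regulator gckr, which holds glucokinase in the nucleus, had 16.3 and 16.1 CPM in F1BC livers, against 2.63 and 1.48 CPM in PB livers (log2 fold change 2.75 ± 0.61 (SE), adjusted p = 0.0365, up to 0.246 and lost whichever F1BC or PB liver was left out). It was the only DEG among 39 tested genes of glycolysis and gluconeogenesis, where 2.72% of all genes tested were DEGs. None of the 17 glycogen genes passed. Of 21 tested genes of the growth hormone and IGF axis, igf2 was higher in F1BC, and igfbp1b and irs2a, described above, were lower. Over all genes tested, 2.13% were higher and 0.589% lower DEGs. Insulin-like growth factor II (igf2) had 144 and 201 CPM in F1BC livers, against 34.2 and 30.1 CPM in PB livers (log2 fold change 2.39 ± 0.38 (SE), adjusted p = 0.00629, up to 0.0979 and lost without F1BC replicate 2 or PB replicate 2), whereas igf1 had 10.3 and 117 CPM in F1BC livers and 7.52 and 3.16 CPM in PB livers and was not a DEG (adjusted p = 0.116). Of 11 tested genes of pyruvate dehydrogenase and its kinases, pdk2a was the only DEG, and pdk4 had 181 and 151 CPM in F1BC livers and 136 and 51.9 CPM in PB livers (adjusted p = 0.433).

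**Figure D4:**
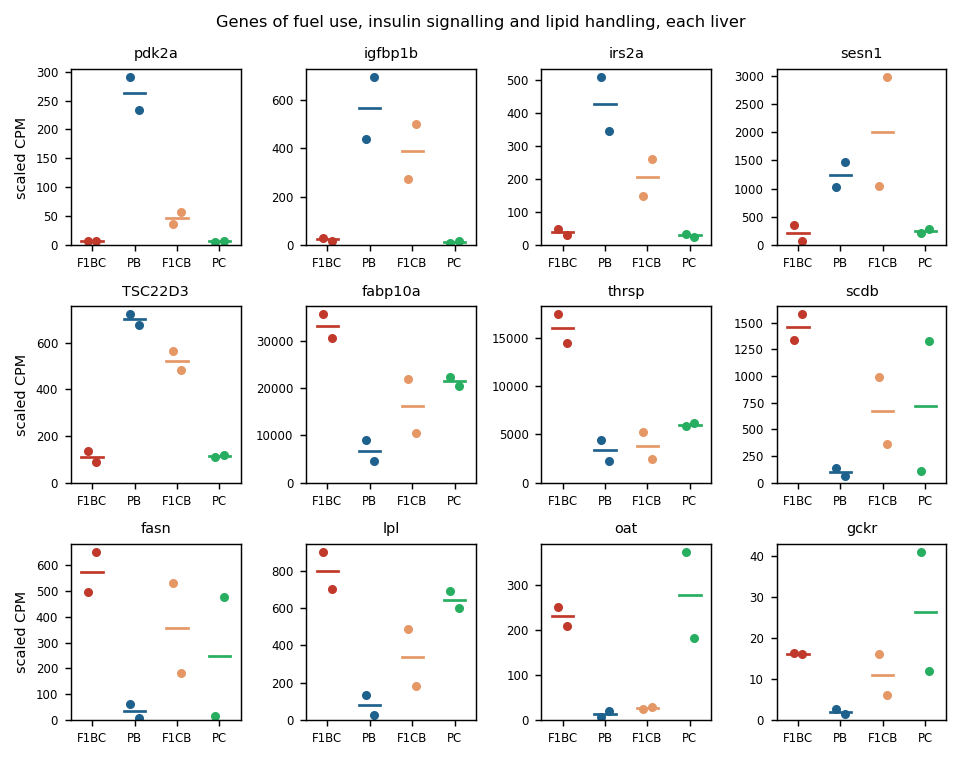
Scaled CPM (vertical axes, from 0) of 12 genes of fuel use, insulin signalling and lipid handling in each of the 2 livers of F1BC, PB, F1CB and PC, with bars at the mean of each type. Both PB livers lie above both F1BC livers for pdk2a, igfbp1b, irs2a, sesn1 and TSC22D3 and below them for the other 7 genes. The F1CB livers also lie above the F1BC and PC livers for pdk2a, igfbp1b, irs2a, sesn1 and TSC22D3. They are low for oat, and fasn and scdb differ widely between the PC livers.

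Heme oxygenase (hmox), which degrades heme and is induced by oxidative stress, had 965 and 640.5 CPM in F1BC livers, against 43.98 and 38.4 CPM in PB livers (log2 fold change 4.24 ± 0.63 (SE), adjusted p = 0.00405). Without PB replicate 2 the adjusted p was 0.0591. The F1CB livers were also high at 829 and 365 CPM, and the PC livers were at 28.8 and 135 CPM, so that both hybrids lay above both parents. The neighbouring identifier ENSIPUG00000016708, a heme oxygenase-like gene found from its description, had 505 and 190.3 CPM in F1BC livers, against 17.2 and 6.75 CPM in PB livers (log2 fold change 4.77 ± 0.72 (SE), adjusted p = 0.00436, up to 0.07198, lost without F1BC replicate 1 or PB replicate 2), and reads shared between these copies would make both uncertain. These were the only DEGs of 5 heme oxygenase genes counted from descriptions, after the values were seen. A further copy, ENSIPUG00000016750, had 302 and 289 CPM in F1BC livers and 54.6 and 238 CPM in PB livers (adjusted p = 0.498), and hmox1a and hmox2b, both with F1BC livers below PB livers, did not pass (adjusted p = 0.409 and 0.516 by limma). Hmox was the only DEG among 32 tested genes of oxidative stress defence, where 2.72% of all genes tested were DEGs. The iron exporter ferroportin (slc40a1), the only DEG among 26 genes of heme and iron, had 455 and 288 CPM in F1BC livers, against 46.4 and 83.8 CPM in PB livers (log2 fold change 2.53 ± 0.52 (SE), adjusted p = 0.0254, up to 0.215 and lost whichever F1BC or PB liver was left out).

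Of 26 tested cytochrome P450 genes, 3 were higher in F1BC and none was lower, against 2.13% and 0.589% of all genes tested. Cyp3a65, a member of the main drug-metabolising family, had 384 and 343 CPM in F1BC livers, against 61.9 and 60.6 CPM in PB livers (log2 fold change 2.56 ± 0.41 (SE), adjusted p = 0.00616), and 3 other genes with this symbol were listed, so that reads may be divided among copies. Cyp2r1, which hydroxylates vitamin D, had 5.81 and 9.57 CPM in F1BC livers, against 1.57 and 0.0959 CPM in PB livers, and cyp27c1, known in zebrafish as a retinol desaturase, had 24.03 and 35.6 CPM in F1BC livers, against 9.72 and 1.42 CPM in PB livers. Their log2 fold changes were 2.84 and 2.75 (adjusted p = 0.0303 and 0.0472). All 3 calls were lost without either F1BC liver or PB replicate 2 (up to 0.0704, 0.234 and 0.286), and that of cyp27c1 also without either F1CB liver.

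Sulfotransferases conjugate hormones and foreign compounds. In the list of 28 conjugation enzymes sult6b1 was the only DEG, with 96.3 and 122 CPM in F1BC livers, against 22.9 and 10.7 CPM in PB livers (log2 fold change 2.75 ± 0.60 (SE), adjusted p = 0.0328, up to 0.2597 and lost without either F1BC liver or PB replicate 2). From descriptions read after the values were seen, 3 of 8 cytosolic sulfotransferases were DEGs, all higher, against 2.13% of all genes tested. Among them st1s3 had 457 and 340.3 CPM in F1BC livers, against 31.1 and 54.9 CPM in PB livers (log2 fold change 3.24 ± 0.46 (SE), adjusted p = 0.00327) and was stable. Of the 8 sulfotransferases, 3 had both F1BC livers above both PB livers and 3 had both below (25.7% and 26.9% of all genes tested).

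Amino acid genes included 3 higher DEGs among 51, against 2.13% of all genes tested. Ornithine aminotransferase (oat), which turns ornithine into a precursor of proline and glutamate, had 252 and 208 CPM in F1BC livers, against 6.601 and 19.6 CPM in PB livers (log2 fold change 4.26 ± 0.52 (SE), adjusted p = 0.00127) and was stable. Its levels were low in F1CB livers at 25.3 and 30.02 CPM and high in PC livers at 373 and 183 CPM. Glutaminase 2 (gls2a) had 199 and 417 CPM in F1BC livers, against 19.3 and 46.4 CPM in PB livers, and the aspartate aminotransferase gene got2 had 502 and 518 CPM in F1BC livers, against 170.3 and 164 CPM in PB livers, with log2 fold changes of 3.25 and 1.61 (adjusted p = 0.0278 and 0.0357). Both calls were lost whichever F1BC or PB liver was left out (up to 0.204 and 0.2201), and got2 was also lost without either F1CB liver. Uridine phosphorylase 2 (upp2), which salvages pyrimidines, had 8067 and 7283 CPM in F1BC livers, against 1534 and 1650.3 CPM in PB livers (log2 fold change 2.27 ± 0.42 (SE), adjusted p = 0.0145, up to 0.148 and lost whichever F1BC or PB liver was left out).

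Among 234 solute carriers 10 were higher and 2 were lower in F1BC, against 2.13% and 0.589% of all genes tested. The list median was 0.29 and became -0.04 without rescaling. The monocarboxylate transporter-like gene slc16a9b had 214 and 198 CPM in F1BC livers, against 11.7 and 5.81 CPM in PB livers (log2 fold change 4.55 ± 0.59 (SE), adjusted p = 0.00173). The cationic amino acid transporter gene slc7a1a, which imports arginine and lysine, had 73.5 and 49.9 CPM in F1BC livers, against 2.79 and 4.45 CPM in PB livers (log2 fold change 3.92 ± 0.50 (SE), adjusted p = 0.00153). Both were stable and low in both PB livers. The mitochondrial carrier gene SLC25A34 had 99.3 and 54.7 CPM in F1BC livers, against 11.96 and 7.63 CPM in PB livers (log2 fold change 2.88 ± 0.48 (SE), adjusted p = 0.00847, up to 0.105, lost without F1BC replicate 1 or PB replicate 2).

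Of 55 tested genes of complement and clotting, 3 were higher and none was lower, against 2.13% and 0.589% of all genes tested. The gene c1s, annotated as a mannan-binding lectin serine protease 2-like gene, had 362 and 487 CPM in F1BC livers, against 58.01 and 51.3 CPM in PB livers (log2 fold change 2.93 ± 0.40 (SE), adjusted p = 0.00264) and was stable. The complement component c4 had 146 and 199.5 CPM in F1BC livers, against 32.1 and 52.7 CPM in PB livers, and protein C (PROC), an inhibitor of clotting, had 101 and 125 CPM in F1BC livers, against 35.6 and 17.3 CPM in PB livers, with log2 fold changes of 2.04 and 2.15 (adjusted p = 0.0201 and 0.0178, up to 0.183 and 0.157). These calls were lost without either F1BC liver or PB replicate 2, and that of c4 also without PB replicate 1.

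No DEG was found among 39 genes of the interferon response list, against 2.72% of all genes tested. The list median was -0.54. Genes described as interferon-induced protein 44-like carry no symbol of that list, and 3 of 14 were higher in F1BC, against 2.13% of all genes. ENSIPUG00000006640 had 104 and 56.1 CPM in F1BC livers, against 3.96 and 2.095 CPM in PB livers (log2 fold change 4.50 ± 0.56 (SE), adjusted p = 0.00132) and was stable. The other members, ENSIPUG00000006598 and ENSIPUG00000006725, had 3.36 and 2.61 CPM in F1BC livers and 0.279 and 0.207 CPM in PB livers, and 10.7 and 6.54 CPM in F1BC livers and 0.709 and 0.0947 CPM in PB livers, with adjusted p-values of 0.0273 and 0.0414 that reached 0.233 and 0.282 and were lost whichever F1BC or PB liver was left out. This family was chosen after its values were seen. So were the class II histocompatibility genes, which present antigens. Of these 5 genes 2 were higher in F1BC and none was lower, against 2.13% and 0.589% of all genes tested. ENSIPUG00000003209, a beta chain, had 65.5 and 110.2 CPM in F1BC livers, against 8.09 and 25.3 CPM in PB livers, and ENSIPUG00000003052, an alpha chain, had 7.02 and 14.3 CPM in F1BC livers, against 1.45 and 0.857 CPM in PB livers, at log2 fold changes of 2.52 and 2.69 (adjusted p = 0.0287 and 0.0258 by limma, up to 0.225 and 0.262). Both calls were lost without either F1BC liver or PB replicate 1, and that of ENSIPUG00000003052 also without PB replicate 2. The other beta chain gene, ENSIPUG00000003013, had 7.61 and 9.98 CPM in F1BC livers and 2.98 and 22.9 CPM in PB livers (adjusted p = 0.993). The alpha chain gene zgc:123107 lay lower in F1BC, at 1.87 and 1.14 CPM, against 5.08 and 3.65 CPM in PB livers (adjusted p = 0.230 by limma). Cd74a, a gamma chain gene, had 547 and 936 CPM in F1BC livers and 528 and 872 CPM in PB livers (adjusted p = 0.962 by limma).

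Sialyltransferases, which cap the sugar chains of plasma and membrane glycoproteins, were counted from descriptions after the values were seen. Of 15 cases 4 were higher and none was lower, against 2.13% and 0.589% of all genes tested. St6galnac6 had 292 and 231 CPM in F1BC livers, against 28.3 and 22.6 CPM in PB livers (log2 fold change 3.34 ± 0.41 (SE), adjusted p = 0.00132), and st3gal3a had 82.4 and 69.2 CPM in F1BC livers, against 3.97 and 6.65 CPM in PB livers (log2 fold change 3.75 ± 0.51 (SE), adjusted p = 0.00247). Both were stable. St3gal3b and st3gal7 had 188 and 114 CPM in F1BC livers and 30.9 and 22.7 CPM in PB livers, and 43.1 and 47.1 CPM in F1BC livers and 4.65 and 8.63 CPM in PB livers, with adjusted p-values of 0.0163 and 0.0185 that reached 0.178 and 0.134. Both were lost without either F1BC liver or PB replicate 2, and st3gal7 also without PB replicate 1.

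A few further stable DEGs are given here as examples, chosen after their values were seen. The calsyntenin gene clstn2 had 28.8 and 18.4 CPM in F1BC livers, against 0.277 and 0.0632 CPM in PB livers, and the L1-type adhesion gene chl1b had 25.4 and 34.3 CPM in F1BC livers, against 0.525 and 0.239 CPM in PB livers. The GABA receptor subunit gene gabrr3b had 16.1 and 10.6 CPM in F1BC livers, against 7.07e-04 and 0.0564 CPM in PB livers. These PB values are read only as near 0. In total, 17 of the 54 stable higher DEGs had a PB mean under 1 CPM. The metabolic genes CASTOR1, an arginine sensor of mTORC1, with 71.9 and 53.4 CPM in F1BC livers, against 4.52 and 2.54 CPM in PB livers, and kyat3, a kynurenine aminotransferase, with 137 and 101 CPM in F1BC livers, against 18.4 and 9.64 CPM in PB livers, were stable as well. The gene stoml3b, a stomatin-like membrane protein, had 395 and 318 CPM in F1BC livers, against 16.04 and 14.97 CPM in PB livers (log2 fold change 4.47 ± 0.52 (SE), adjusted p = 9.49e-04).

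Among 72 nuclear receptor and clock genes, 5 were higher and 1, NR4A1, was lower, against 2.13% and 0.589% of all genes tested. In this list 34 had both F1BC livers above both PB livers, against 9 with both below (25.7% and 26.9% of all genes tested). The liver receptor homolog gene nr5a5, from the family that drives bile acid synthesis, had 267 and 414 CPM in F1BC livers, against 83.9 and 76.4 CPM in PB livers (log2 fold change 2.05 ± 0.39 (SE), adjusted p = 0.0167). The clock repressor gene bhlhe40 had 432 and 415 CPM in F1BC livers, against 88.6 and 52.4 CPM in PB livers (log2 fold change 2.63 ± 0.52 (SE), adjusted p = 0.0201), and hlfb, a clock-controlled activator, had 159 and 73.9 CPM in F1BC livers, against 19.9 and 2.51 CPM in PB livers (log2 fold change 3.79 ± 0.78 (SE), adjusted p = 0.0253). The orphan receptor gene nr0b1 had 111 and 81.96 CPM in F1BC livers, against 16.7 and 18.2 CPM in PB livers (log2 fold change 2.42 ± 0.50 (SE), adjusted p = 0.0258). These calls were lost without either F1BC liver or PB replicate 2, and that of nr0b1 also without PB replicate 1 (up to 0.173 for bhlhe40, 0.176 for nr5a5, 0.202 for hlfb and 0.205 for nr0b1).

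Of 40 forkhead and liver transcription factors, hnf1ba and foxa1 were higher in F1BC and none was lower, against 2.13% and 0.589% of all genes. Hnf1ba, a regulator of bile duct and hepatocyte genes, had 334 and 164 CPM in F1BC livers, against 70.9 and 13.6 CPM in PB livers (log2 fold change 2.89 ± 0.67 (SE), adjusted p = 0.0415, up to 0.286). Foxa1, a pioneer factor of liver genes, had 13.3 and 29.3 CPM in F1BC livers, against 4.55 and 0.803 CPM in PB livers (log2 fold change 2.98 ± 0.71 (SE), adjusted p = 0.0475, up to 0.331). PB replicate 1 was well above PB replicate 2 for both. The calls were lost without either F1BC liver or PB replicate 2, and that of hnf1ba also without either F1CB liver.

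General cell machinery gave few DEGs, against 2.72% of all genes tested. None of 78 ribosomal protein genes, 49 proteasome genes, 81 splicing genes, 73 mitochondrial ribosome genes, 64 chaperone genes or 21 housekeeping genes was a DEG. Among 83 nuclear-encoded respiratory chain genes, ndufa3 was the only DEG, with 3.17 and 4.88 CPM in F1BC livers, against 0.405 and 0.8496 CPM in PB livers (log2 fold change 2.01 ± 0.47 (SE), adjusted p = 0.0435, up to 0.319 and lost whichever F1BC, PB or F1CB liver was left out). Proteasome genes had a median of -0.52, with both F1BC livers below both PB livers for 25 of 49 genes and above for 7 (26.9% and 25.7% of all genes tested). The median of the ribosomal protein genes was 0.18, but -0.19 without rescaling and -0.09 after quantile normalization.

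**Figure D5:**
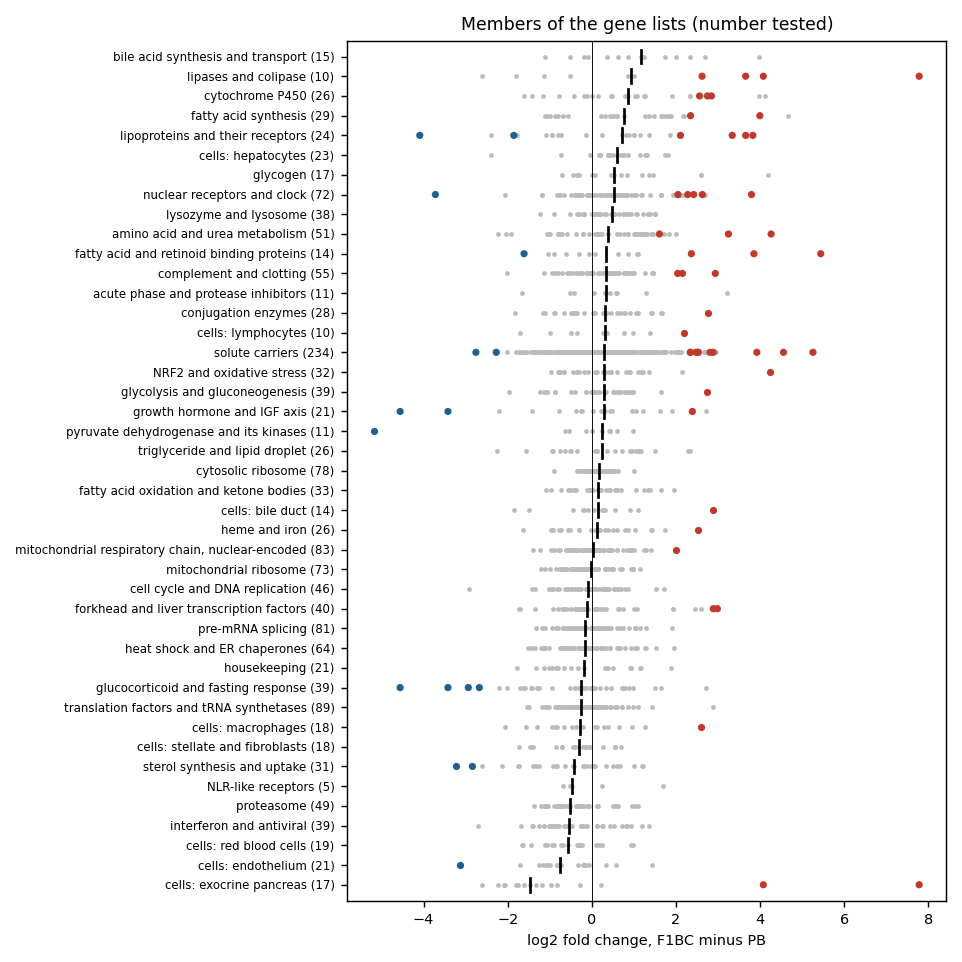
Log2 fold change between F1BC and PB of the members of each gene list with at least 5 genes tested, ordered by the list median (black bar). Red and blue points are DEGs higher and lower in F1BC, grey points are not DEGs, and the number tested follows each name. The exocrine pancreas list has the lowest median, -1.46, yet holds the largest increase, 7.78 for col.

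Across the 44 lists with a tested gene, 20 held no DEG, 15 held only higher DEGs, 4 only lower DEGs and 5 both. The lists together covered 1596 of the 13408 genes tested and 59 of the 365 DEGs, 45 higher and 14 lower. Most DEGs therefore lay outside the lists, as did most genes tested. No gene symbol was given for 82 of the 365 DEGs, and for 1847 of all 13444 genes with values.

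Each list of markers of another cell type held 1 DEG or none, where 2.72% of all genes tested were DEGs. With 10 to 21 genes per list, such counts are too small to be told apart from that share. Of 21 endothelial markers, 11 had both F1BC livers below both PB livers and 3 had both above (26.9% and 25.7% of all genes tested), the median was -0.77, and lyve1a, a hyaluronan receptor of lymphatic and sinusoidal vessels, was the only DEG. It had 6.704 and 2.85 CPM in F1BC livers, against 33.7 and 53.2 CPM in PB livers (log2 fold change -3.12 ± 0.53 (SE), adjusted p = 0.00867, up to 0.122 without F1BC replicate 2 or PB replicate 2). Summed endothelial levels were 356 and 314 CPM in F1BC livers and 371 and 509 CPM in PB livers.

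Red blood cell markers were high in a single liver, with summed levels of 3871 and 3000.2 CPM in F1BC livers and 2795 and 9424 CPM in PB livers, and none of the 19 was a DEG. The median log2 fold change of these markers was -0.57. Both F1BC livers lay below both PB livers for 6 and above for 2 (26.9% and 25.7% of all genes tested). Whether the high sum of PB replicate 2 bears on the number of DEGs was not tested. None of 18 fibroblast and stellate cell markers was a DEG, and their median was -0.31. Of these, 9 had both F1BC livers below both PB livers and 2 had both above. MFAP4, annotated as a microfibril-associated glycoprotein 4-like gene and used as a macrophage marker in zebrafish, was the only DEG of 18 macrophage markers, with 279.7 and 896 CPM in F1BC livers, against 75.6 and 90.9 CPM in PB livers (log2 fold change 2.59 ± 0.50 (SE), adjusted p = 0.0176, up to 0.165). Cd40, an activating receptor of B lymphocytes, was the only DEG of 10 lymphocyte markers, with 10.3 and 26.7 CPM in F1BC livers, against 3.19 and 3.39 CPM in PB livers (log2 fold change 2.18 ± 0.52 (SE), adjusted p = 0.0472, up to 0.374). Both calls were lost without F1BC replicate 2 or either PB liver, and that of cd40 also without F1BC replicate 1 or either F1CB liver. The median log2 fold change was -0.29 for the 18 macrophage markers and 0.31 for the 10 lymphocyte markers. Both F1BC livers lay above both PB livers for 4 and below for 6 macrophage markers, and for 4 and 4 lymphocyte markers. Over all genes tested these shares were 25.7% and 26.9%. The part of any of these cell types in the other DEGs was not tested.

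A fetuin-B-like plasma protein gene, ENSIPUG00000002515, was among the lower DEGs of high CPM, with 74.6 and 98.9 CPM in F1BC livers, against 395 and 738 CPM in PB livers (log2 fold change -2.64 ± 0.45 (SE), adjusted p = 0.00872, up to 0.101 without either F1BC liver or PB replicate 2). The hepatocyte list, which holds many plasma protein genes, had no DEG, against 2.72% of all genes tested. Of its 23 genes 12 had both F1BC livers above both PB livers and 1 had both below (25.7% and 26.9% of all genes tested), and the transferrin gene tfa with the identifier ENSIPUG00000014853 had 5848 and 7246 CPM in F1BC livers and 2081 and 1812 CPM in PB livers (adjusted p = 0.0545).

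The other parent and hybrid share no library with this comparison, so the difference of F1CB from PC was set beside it. Both differences come from 1 fit of all 8 libraries with a shared estimate of the spread, so calls in both are not independent. Of the 286 genes higher in F1BC than in PB, 250 (87.4%) had a negative F1CB minus PC difference, as did 50.8% of all genes tested. In that comparison 18 of them were DEGs lower in F1CB (0.634% of all genes) and 3 were DEGs higher in F1CB (1.54% of all genes), and their median difference was -0.91. Of the 79 genes lower in F1BC than in PB, 72 (91.1%) had a positive F1CB minus PC difference, against 49.2% of all genes. Among them 19 were DEGs higher in F1CB and 1 was a DEG lower in F1CB, with a median difference of 1.52. Without rescaling the shares were 89.9% and 89.9%, beside 60.2% and 39.8% of all genes. Both comparisons set a hybrid against the species of its mother.

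Set gene by gene, the F1CB minus PC log2 difference was -6.15 for ENSIPUG00000004359 (adjusted p = 3.43e-05), -3.22 for oat (0.00972), 4.81 for igfbp1b (6.49e-04), 3.54 for zgc:162608 (0.005696), 2.75 for pdk2a (0.00839) and 2.69 for irs2a (0.00959), all adjusted p-values from limma. The gene hmox ran the other way, at 3.13 (0.0313), being higher in each hybrid than in the species of its mother. MFAP4 was a further gene of this kind, at 2.31 (0.0364). For col the difference was -0.56 (0.495), within the spread between livers.

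Few genes passed the test between the 2 hybrids, and with 2 livers per type genes that did not pass cannot be called equal. The unadjusted p of that test (limma) was under 0.05 for 1144 of the 13408 genes tested. In the F1BC minus F1CB contrast 18 genes (0.134%) were DEGs. Of these, 13 were also DEGs between F1BC and PB, 8 of them higher and 5 lower than in PB, against 2.72% of all genes tested. Both contrasts use the same 2 F1BC livers, so that calls in both are not independent.

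Among the genes chosen for qRT-PCR, hmox was the only DEG in this comparison. The membrane protein gene tm4sf4 had 277 and 523 CPM in F1BC livers and 278 and 47.4 CPM in PB livers, and irf7, a master regulator of interferon genes, had 7.63 and 8.44 CPM in F1BC livers and 16.8 and 19.97 CPM in PB livers. The growth factor gene fgf1b had 21.3 and 120.4 CPM in F1BC livers and 371 and 121 CPM in PB livers, and the cytochrome gene cyp2k19 had 5.04 and 11.3 CPM in F1BC livers and 28.6 and 15.4 CPM in PB livers. Creg1, a secreted glycoprotein gene, had 41.2 and 47.3 CPM in F1BC livers and 30.2 and 29.9 CPM in PB livers. Their adjusted p-values by limma ran from 0.199 for tm4sf4 to 0.518 for creg1, so that none of these 5 differences passed the threshold.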

How the data were processed

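RNA-seq was done on 8 livers, 2 each of F1BC, PB, F1CB and PC, grouped by their labels. Per the labels and the study's methods, the authors checked and trimmed reads with FastQC 0.11.5 and Trimmomatic 0.39 (the version in the submitters' processing notes), aligned them to the channel catfish genome with TopHat2 2.1.1, counted them per gene with bedtools 2.29.0 and used edgeR. The genome build and the use of strand in counting are not given in the sources used here. The deposited values are called RPKM, but each library sums to between 996838 and 998652, near the fixed total of CPM, and they match the authors' own mean log2 CPM (median difference -0.01, against -1.68 if divided by gene length), so they were treated as CPM. They are fractional, whole reads were not recovered, no count test was run and depth is unknown. The planned test for RPKM was kept, as it suits CPM.

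The log2 fold changes, p-values and other comparison columns deposited by the authors were not used. Libraries were rescaled by the median of ratios. Tests covered genes whose mean exceeded 1 CPM in 1 or more types, on log2(CPM + 0.5) with limma 3.58.1 in R 4.3.3 (all 8 libraries in 1 fit, 4 types, intensity trend, Benjamini-Hochberg adjustment). DEGs were called at adjusted p-values under 0.05 where the log2 fold change was beyond 1.5 in size. The code was tested on simulated data. The p-values measure the spread between fish of a single tank per type. The 45 gene lists and the genes described were chosen with earlier results of these data known. Genes named were the 12 DEGs with the largest fold change in each direction and the 4 of highest CPM, up to 4 DEGs of each list, and the qRT-PCR genes, with others said to be chosen after their values were seen or given as list members that did not pass. Families taken from descriptions were chosen after the values were seen. The list of genes encoded in mitochondrial DNA matched no gene. The alternatives were other scalings, pseudocounts, filters and thresholds, a replicate block, a fit of the 4 livers alone and leaving out each library.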

Additional observations from a re-analysis of the deposited data

Results flagged for a closer look

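The limma test of F1BC minus F1CB was adjusted over all 13408 genes and uses the same F1BC livers as F1BC minus PB. In it, 13 of the DEGs between F1BC and PB also differed between the 2 hybrids, 8 of them higher and 5 lower in F1BC. The naming rule covers 7 of these, which are given here. The others were ENSIPUG00000002416, ENSIPUG00000022980, afp4 and the class II histocompatibility antigen genes ENSIPUG00000003052 and ENSIPUG00000003209, all higher in F1BC, and si:dkey-103g5.3, lower in F1BC. The fold changes given here are of that contrast, on the scale of log2(CPM + 0.5). With 2 livers per type, no search for outlying samples within a type was made.

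Of the genes named by rule, those higher in F1BC than in F1CB were ENSIPUG00000004359, ret2 and efhb. ENSIPUG00000004359 had 92.1 and 153 CPM in F1BC livers and 1.48 and 1.21 CPM in F1CB livers (log2 fold change 6.02 ± 0.42, SE, adjusted p = 8.82e-05). Ret2, a retinol-binding protein gene, had 177 and 167 CPM in F1BC livers and 2.801 and 1.54 CPM in F1CB livers (6.06 ± 0.88, SE, adjusted p = 0.0203). Efhb had 103 and 63.97 CPM in F1BC livers and 8.496 and 5.04 CPM in F1CB livers (3.53 ± 0.55, SE, adjusted p = 0.0311).

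Those named by rule and lower in F1BC than in F1CB were pdk2a, igfbp1b, zgc:162608 and TSC22D3, of which igfbp1b and TSC22D3 belong to the glucocorticoid and fasting list. Pdk2a had 6.72 and 6.81 CPM in F1BC livers and 36.4 and 56.8 CPM in F1CB livers (-2.66 ± 0.41, SE, adjusted p = 0.0293). Igfbp1b had 28.5 and 18.5 CPM in F1BC livers and 274 and 499 CPM in F1CB livers (-3.98 ± 0.46, SE, adjusted p = 0.00622). The gene zgc:162608 had 313 and 412 CPM in F1BC livers and 4017 and 9873 CPM in F1CB livers (-4.13 ± 0.49, SE, adjusted p = 0.00622). TSC22D3 had 135 and 88.5 CPM in F1BC livers and 562 and 482 CPM in F1CB livers (-2.25 ± 0.37, SE, adjusted p = 0.0469). These differences are between 1 tank of each hybrid.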

How the results depend on the processing

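The number of DEGs was 365 (286 higher and 79 lower in F1BC), and it ran from 84 to 590 with each library left out in turn (70 to 434 higher, 14 to 158 lower). As deposited, without rescaling, 306 genes passed, 180 higher and 126 lower. The fold change threshold alone gave 1263 genes (811 higher and 452 lower), and genes over 1 CPM in both F1BC and PB, an alternative chosen after seeing the data, gave 213 (172 higher and 41 lower). Replicate numbers are shared between types but name separate fish, and the deviations of same-numbered livers correlated at 0.098 for F1BC and PB and at -0.01 to 0.14 over all pairs of types, so the numbers were not taken to pair the samples. With the replicate number as a block, 590 genes passed, 449 higher and 141 lower. Totals of 342 to 390 were found with quantile normalization, pseudocounts of 0.1 and 1, no filter, a mean over 5 CPM, and the 4 livers alone, of which the last shared 304 of its 390 DEGs with the 365. For 75 genes named by rule, 1029 of 1263 alternative values kept their direction and side of the threshold, 233 no longer passed, 1 newly passed and none reversed, and 14 of 70 named DEGs were lost without rescaling, among them gckr, apof, FABP2, slc40a1, gls2a, c4 and foxa1. The 70 named DEGs were picked from these same data and had no overlap between types. The lack of reversals is therefore no support for them. Of 748 list medians under alternatives, 99 moved. Depth was not used here, so the counting error of genes near 0 is not given, and 2 livers per type from 1 tank each limit all tests.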
